A study of Mus musculus with 72 samples.

Results

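Heat shock proteins and DnaJ co-chaperones were examined in acutely dissociated Pet1 neurons of the mouse dorsal raphe (DR), the midbrain and pontine nucleus that holds most forebrain-projecting serotonin neurons. Members were taken by gene symbol: every gene of the HSP70 (Hspa), small heat shock (Hspb), chaperonin (Hspd, Hspe), HSP110 (Hsph), HSP90 (Hsp90) or DnaJ (Dnaja, Dnajb, Dnajc) naming families with a UMI in 10 or more cells of the droplet table. The droplet table lists 17231 genes, of which 66 matched and 65 passed, 39 with DnaJ symbols and 26 with Hsp symbols. The gene left out, Dnajb13, had a UMI in 4 cells. Beyond this minimum no measured level entered the rule. Membership follows the symbol and not the function, so Hspbp1 and Hspbap1, named for binding HSP70 and HSPB1, and Hspb11, a ciliary transport protein also called IFT25, are among the 65.

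The study read single Pet1 neurons in 2 ways. Droplet libraries (10X Genomics 3′ v3) came from 2 runs of the whole DR, each on pooled animals. The cells of run 1 were Pet1::Flpe+/-; hM3Dq+/+ with a mean age of postnatal day 65.5. Those of run 2 were En1::cre+/-;Pet1::Flpe+/-;RC::FrePe+/- with a mean age of postnatal day 59. Their table holds 2350 cells in 2 barcode sets, 869 cells in set 1 and 1481 in set 2, with 0 barcode sequences in common. Run, genotype, age and animals differ together between the runs and cannot be told apart, and no source read here ties a barcode set to a run. The other 70 samples were single cells picked by hand and read over the full transcript (SMART-Seq v4), from mice carrying Pet1::Flpe+/- and RC::FrePe+/- with 1 of 4 Cre drivers. EGFP then marks cells with a history of both the Cre driver and Pet1-Flpe, whatever their expression of the driver gene when picked. Sert::cre+/- (Slc6a4-cre) gave 10 cells from the dorsolateral DR (dlDR), 9 from the dorsomedial DR (dmDR), 8 from the ventromedial DR (vmDR) and 6 from the caudal DR (cDR), at postnatal day 63 or 90, those of the cDR all at day 63. P2ry1::cre+/- gave 10 cells of the cDR at days 62 to 74. Npy2r::cre+/- gave 10 cells of the cDR and 9 of the rostral DR (rDR) at days 77 or 87, and Crh::cre+/- gave 8 of the rDR at days 83 or 119. All tissue had been digested with protease in artificial cerebrospinal fluid containing activity blockers, and there were no untreated or heat-shocked groups. No label names the animal of a cell, so each group counts as 1 sample. The droplet table was likewise taken as 1 sample. No p-values are therefore given, intervals cover counting error only, and a group is described by its values.

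Heat shock proteins are chaperones that bind unfolded or partly folded proteins. HSP70 proteins do so in cycles of ATP hydrolysis that DnaJ proteins start and nucleotide exchange factors such as HSP110 end, while HSP90 proteins finish the folding of kinases, receptors and other clients. Some members are made at all times, others are induced through heat shock factor 1 when unfolded proteins collect in the cytosol, and a further set is induced by the unfolded protein response of the endoplasmic reticulum (ER). Tissue dissociation is known to induce some of these genes together with immediate early genes such as Fos, which is why the inducible and the constitutive members are described apart below.

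Promoter sequences are shown for the members whose window holds the ER stress element, and for Hspe1, whose heat shock element also lies in a window of its neighbour Hspd1. RefSeq promoters (GRCm38.p6, windows of 300 bases from 250 before to 50 after a start) were found for 54 of the 65 members. The ER stress element was searched as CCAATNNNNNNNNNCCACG, which on the other strand reads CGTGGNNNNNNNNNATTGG. It stood in 39 of all 32851 promoters of that length (0.119%) and in those of 3 of 54 members, Hspa5, Hsp90b1 and Dnajc3, all from the list of ER members used below. The 250 bases before each start are given 5′ to 3′ on the gene's strand, with the element in capitals: Hspa5 on the plus strand at chr2:34771840-34772089, Hsp90b1 on the minus strand at chr10:86705445-86705694 with 2 matches, 1 on each strand, and Dnajc3 on the plus strand at chr14:118937682-118937931.
Hspa5: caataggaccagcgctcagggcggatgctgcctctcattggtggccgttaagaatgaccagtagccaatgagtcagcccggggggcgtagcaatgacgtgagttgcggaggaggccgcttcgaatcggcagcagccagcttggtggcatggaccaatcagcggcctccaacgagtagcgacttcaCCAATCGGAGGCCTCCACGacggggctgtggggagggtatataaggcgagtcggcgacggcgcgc
Hsp90b1: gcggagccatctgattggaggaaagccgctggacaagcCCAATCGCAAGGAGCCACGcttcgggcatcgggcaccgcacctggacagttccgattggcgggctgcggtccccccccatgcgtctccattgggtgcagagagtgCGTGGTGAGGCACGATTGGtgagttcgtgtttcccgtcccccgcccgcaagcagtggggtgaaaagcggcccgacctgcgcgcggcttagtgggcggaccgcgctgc
Dnajc3: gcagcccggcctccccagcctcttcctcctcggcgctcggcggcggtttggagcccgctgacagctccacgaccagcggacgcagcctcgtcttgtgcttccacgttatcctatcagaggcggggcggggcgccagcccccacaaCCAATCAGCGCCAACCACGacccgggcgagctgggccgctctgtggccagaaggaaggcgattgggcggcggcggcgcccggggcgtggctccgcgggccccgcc

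A heat shock element of 3 alternating units was searched as GAANNTTCNNGAA on both strands (TTCNNGAANNTTC on the other), letters that can overlap each other. It stood in 198 of the promoters (0.603%) and in those of 4 of 54 members, Dnajb6, Hspd1, Hspe1 and Hsph1. Of these only Hsph1, where the match starts after the transcription start, is in the inducible list used below. These letters were in no window of the inducible members Hspa1a, Hspa1b, Hspb1, Dnajb1, Dnajb4 and Dnaja1, and Hsp90aa1 had no entry, so the inducible list does not rest on this search. Hspd1 and Hspe1, which encode the mitochondrial chaperonin and its lid, lie head to head on chromosome 1. The same element stands in the window of Hspe1 and in 1 of the 2 windows of Hspd1, and the window of the other annotated Hspd1 start has 0 matches. The sequence before the start of Hspe1, on the plus strand at chr1:55087898-55088147, is given with its 2 overlapping matches in capitals.
Hspe1: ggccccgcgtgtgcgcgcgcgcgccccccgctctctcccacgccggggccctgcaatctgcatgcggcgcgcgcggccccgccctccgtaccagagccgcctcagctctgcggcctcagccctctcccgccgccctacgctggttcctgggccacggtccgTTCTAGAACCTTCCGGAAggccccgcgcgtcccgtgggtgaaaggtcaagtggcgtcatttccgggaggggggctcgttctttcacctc
A match is a string of letters in the window and says nothing by itself about binding in these cells.

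The members together held 1.41% of all UMIs in the droplet cells. Levels are given as CPM, the gene's UMIs summed over the cells named, scaled to 1000000 UMIs of all genes. Since each 3′ UMI stands for 1 captured transcript, genes can be compared on this scale without a correction for length. Hsp90ab1, the constitutive cytosolic HSP90, was the highest at 2528 CPM, followed by Hspa8, the constitutive HSP70 (1994 CPM), Hsp90aa1, the inducible HSP90 (1514 CPM), Hspe1 (1119 CPM) and Dnaja1, a DnaJ partner of HSP70 (787 CPM). These 5 genes held 56.5% of the members' UMIs. Of the 65 members 25 stood at 100 CPM or more, 30 at 10 to under 100 CPM and 10 below 10 CPM, down to Hspa1l at 0.125 CPM. A UMI was found in 99% of cells or more for 22 members and in under 50% of cells for 15, in cells with a median of 59646 UMIs (12320 to 134079). The table holds no cell type that should lack these genes, so the share of cells that free RNA alone would give was not measured.

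Role lists are used below. The inducible cytosolic list holds 8 members, the ER list 6, the mitochondrial list 6 and the constitutive cytosolic and neuronal list 16, which leaves 29 members in no list. Summed over its members, the constitutive list stood at 6947 CPM, the inducible list at 2963 CPM, the mitochondrial list at 1854 CPM and the ER list at 1092 CPM. Across single cells the summed level of the inducible list had a median of 2861 CPM, with 10% of cells under 2197 CPM and 10% over 3960 CPM. The mitochondrial list varied less, the same limits being 1479 and 2206 CPM.

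Levels within the inducible list ranged widely. Hsp90aa1 was the highest, Dnaja1 followed, and Hsph1, the HSP110 exchange factor, stood at 410 CPM. Dnajb4 (119 CPM) and Dnajb1 (84.0 CPM), both DnaJ partners of stress-induced HSP70, were lower. Hspb1, which encodes the small heat shock protein HSP27, stood at 27.7 CPM. Hspa1a and Hspa1b, the classic heat-induced HSP70 genes at chr17:34969190-34972156 and chr17:34956436-34959238 on the minus strand (mm10), stood at 15.1 and 6.15 CPM. A UMI of Hspa1a was found in 45.8% of cells (Clopper-Pearson 95% interval 43.8% to 47.9%) and of Hspa1b in 23.5% (21.8% to 25.3%). After drawing 20000 UMIs from every cell (53 cells held fewer and were dropped) the shares were 23.7% and 11.1%. Few cells held many copies: 48 of 2350 cells had 5 or more UMIs of Hspa1a and 7 had 10 or more, the highest being 26 UMIs in a Gad2 cell, or 555 CPM. For Hspa1b 14 cells had 5 or more.

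Spread beyond counting was measured as the Fano factor (variance over mean) of thinned UMIs, which is 1 for pure counting error. Its median over 9953 genes with a thinned mean over 0.1 UMIs was 1.07 and its 90th percentile 1.46. Hsp90aa1 stood at 4.80, Hspa8 at 3.52, Hsp90ab1 at 3.47, Hspb1 at 3.35 and Dnajc12 at 2.92. The first 3 of these are among the most abundant members, and for a given relative spread the Fano factor grows with the mean. Hspb1 had a Fano factor of similar size at a far lower mean level. Hspa1a stood at 1.59 and Hsph1 at 1.67.

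Correlations between inducible members across single cells were low. Over the 28 pairs of the inducible list Pearson's r of log2(CPM + 10) across 2350 cells had a median of 0.07 and ran from -0.10 to 0.30. These points share libraries and depth and are given as a description. Thinned means were 0.316 UMIs a cell for Hspa1a and 0.133 for Hspa1b. Counting error lowers r at such levels, so a low r does not show that these genes vary apart. The highest pair was Hsp90aa1 with Dnaja1, at 0.30 in all cells, 0.18 in barcode set 1, 0.34 in set 2 and 0.23 after thinning. Hspa1a and Hspa1b correlated at 0.15, and Hspa1a with its partner Dnajb1 at 0.03. The ER list had a median r of 0.06 over 15 pairs, with 0.26 for Hspa5, the ER HSP70 also known as BiP, with Hsp90b1, the ER HSP90. The 15 mitochondrial pairs had a median of -0.01 and a highest value of 0.11. Among 120 constitutive pairs the highest was Hspa8 with Hsp90ab1 at 0.41 (0.34 thinned).

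The 5 genes outside the members whose level across cells was most like the summed inducible list, of 12474 genes at 1 CPM or more, were Ubb (r = 0.61), Mdh1 (0.56), Ckb (0.56), Uchl1 (0.56) and Prdx1 (0.51). Ubb encodes polyubiquitin, and the other 4 encode malate dehydrogenase, brain creatine kinase, a neuronal deubiquitinase and a peroxiredoxin. The summed list is dominated by Hsp90aa1, Dnaja1 and Hsph1. Its r with the summed immediate early genes was -0.04, and with the share of mitochondrially encoded UMIs -0.23 (-0.48 in barcode set 2).

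Cells were then split by marker UMIs. Tph2 encodes the rate-limiting enzyme of serotonin synthesis, Gad2 a GABA-synthesising enzyme, Slc17a8 the vesicular glutamate transporter VGLUT3, Met a receptor tyrosine kinase, and Fos an immediate early transcription factor. Cells under 500 CPM of Tph2 (131 cells) were set against all others, and cells with 3 or more UMIs of Gad2 (1158), Slc17a8 (1152), Met (93) or Fos (1527) against cells with fewer. A gene at 1 CPM or more counted as past the fold when its CPM differed by 1.5-fold or more, and 63 members reached 1 CPM. Hspa1l and Hspb3 (0.952 CPM) did not. The cuts pass through continuous levels. There were 21 cells at 250 to 500 CPM of Tph2 and 69 at 500 to 1000, and 93 and 97 cells with 2 and 3 UMIs of Gad2, 91 and 70 of Slc17a8, 10 and 11 of Met, and 278 and 227 of Fos.

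At this minimum level and fold, members passed less often than genes at large in all of these splits. By low Tph2, 13 of 63 members (20.6%) passed beside 33.4% of all 12474 genes. By Gad2 the members' share was 4.76% (3 genes) beside 7.67%, by Slc17a8 6.35% (4 genes) beside 10.4%, and by Met 11.1% (7 genes) beside 25.4%. By Fos 0 of 63 members passed beside 0.954% of all genes. Between the barcode sets 1 member passed (1.59%) beside 5.96%. With a minimum of 5 CPM the shortfall was gone by Gad2 (5% of members beside 4.73% of genes) and by Slc17a8 (6.67% beside 6.59%), and at 2-fold the shares were close by Gad2 (3.17% and 3.25%) and by Slc17a8 (4.76% and 5.11%). At the lowest fold tried they were closer by Tph2 (54% of members beside 57.8% of genes) and by Met (42.9% beside 46.1%). With a minimum of 5 CPM the members' share stayed lower by Tph2 (18.3% beside 26.5%) and by Met (11.7% beside 18.6%). At 2-fold it did so too, by Tph2 (7.94% beside 15.1%) and by Met (4.76% beside 14.1%). How far the members as a family fell short of other genes thus depended on the marker, the minimum level and the fold. The accounts below concern the particular members that did pass, which are not shown to be particular to these genes.

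**Figure D1:**
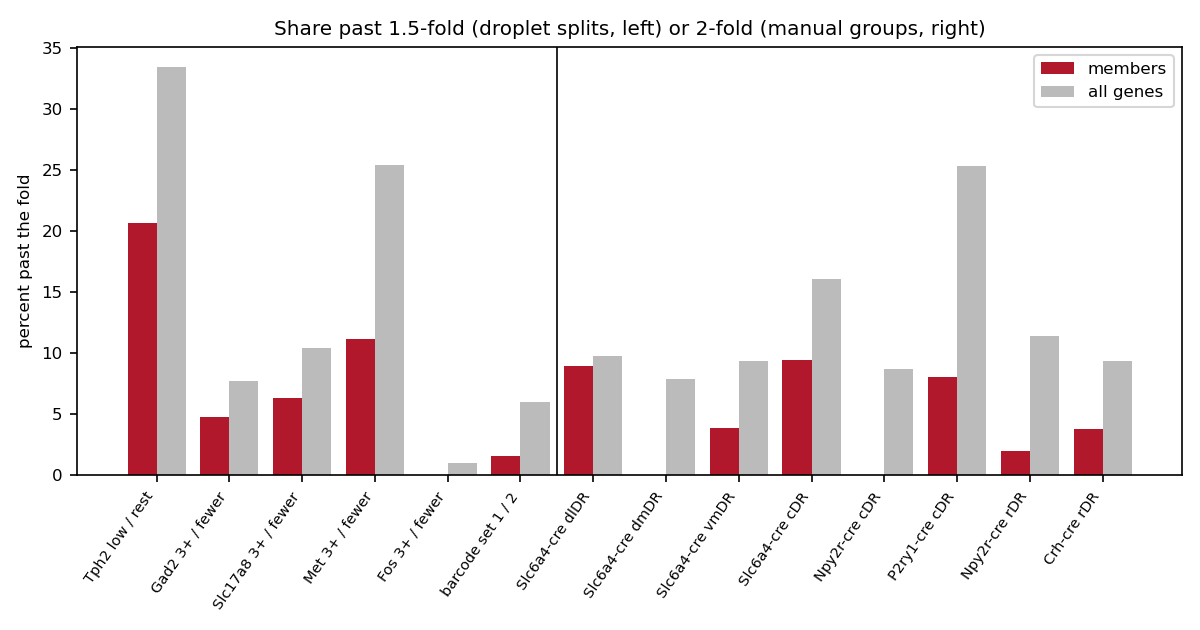
Percent of measured genes past the fold in each of 6 droplet comparisons (1.5-fold) and in each of 8 groups of hand-picked cells (2-fold on group medians), members in red and all genes in grey. Members lie below all genes in every droplet comparison and in every hand-picked group, the Fos comparison having 0 members past the fold.

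Classes of droplet cells, 6 in all, were made from the same markers for a joint view: 131 Tph2-low cells, 93 Met cells, and of the rest 872 with Gad2 alone, 256 with Gad2 and Slc17a8, 684 with Slc17a8 alone and 314 with neither. Their median UMIs per cell were 27329, 46273, 62061, 64277, 63265.5 and 51409.5. Tph2-low cells were the shallowest, so shares of cells with a UMI are compared with that class only after thinning. The summed inducible list was highest in Tph2-low cells (3479 CPM) and lowest in Met cells (2555 CPM), with 2776 to 3158 CPM in the other 4 classes. The constitutive sum had another order, from 6182 CPM in Tph2-low and 6466 CPM in Met cells to 7339 CPM in cells with neither marker.

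**Figure D2:**
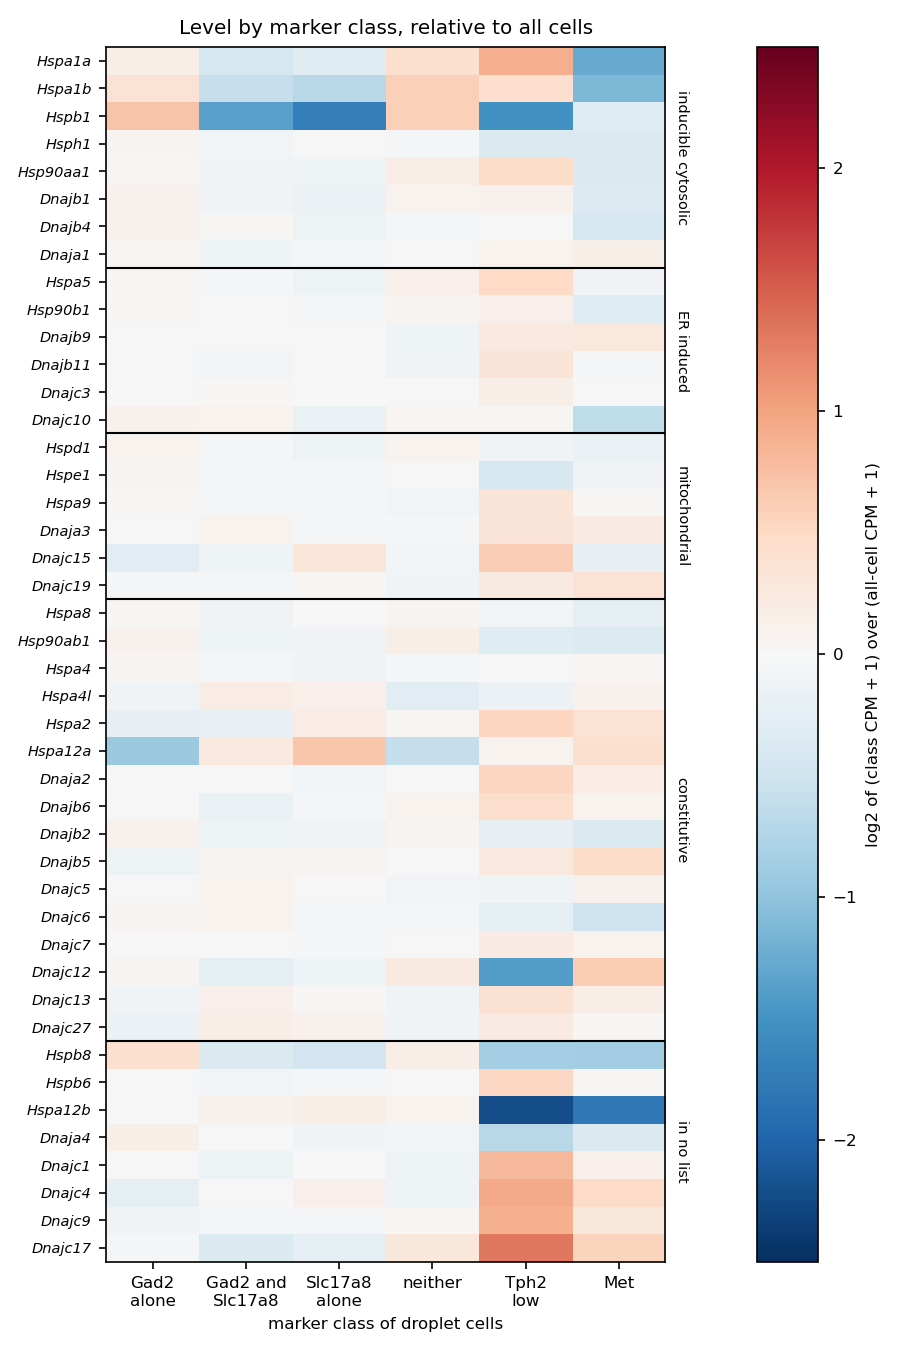
Log2 ratio of each member's summed CPM + 1 in a class to its CPM + 1 over all cells, for 6 classes of droplet cells (columns) and the 36 members of the role lists with the 8 further members past the fold in a marker split (rows). Most cells of the map are near 0, and the stronger colours include those of Hspb1, Hspa12a, Hspa12b, Hspa1a, Hspa1b, Dnajc12, Dnajc17 and Dnajc4.

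The largest difference of any inducible member was that of Hspb1 by Slc17a8. The gene lies on chromosome 5 (chr5:135887919-135889563, plus strand), and its product, HSP27, is a small ATP-independent chaperone that also binds actin and intermediate filaments. It stood at 8.91 CPM in Slc17a8 cells and 45.7 CPM in the others, a log2 ratio of -2.36 (95% interval -2.49 to -2.23). A UMI was found in 21.5% and 50.7% of these cells, which had nearly equal median depths (59345 and 59760.5 UMIs). By Gad2 it went the other way, with 37.5 CPM in Gad2 cells and 17.1 CPM in the others (log2 ratio 1.13, 1.03 to 1.24).

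The classes separate these marker effects. Hspb1 stood at 46.3 CPM (44.5 to 48.2) in cells with Gad2 alone and at 42.6 CPM (39.4 to 46.0) in cells with neither marker. It stood at 10.2 CPM in cells with both and at 7.79 CPM in cells with Slc17a8 alone. Among these 4 classes the high levels were those under 3 UMIs of Slc17a8, with Gad2 or without it. Both barcode sets held this order, with 43.3 and 47.9 CPM in sets 1 and 2 for Gad2 alone and 6.74 and 8.31 CPM for Slc17a8 alone. Met cells, all of which had Slc17a8 UMIs, were between at 21.9 CPM. The level was also uneven within a class: 268 of all cells had 5 or more UMIs of Hspb1 and 98 had 10 or more, 79 of the latter with Gad2 alone. Cells with 5 or more made up 20.4% of Gad2-alone cells, 17.8% of those with neither marker and 2.49% of those with Slc17a8 alone.

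Tph2-low cells had 34 UMIs of Hspb1 in all, at 9.05 CPM beside 28.2 CPM in the rest (log2 ratio -1.64, -2.17 to -1.16), but 123 of the 131 cells had none and 1 cell held 13 of the 34. Without that cell, an alternative chosen after seeing the data, the level was 5.68 CPM and the log2 ratio -2.31. The UMIs also came unevenly from the barcode sets, at 1.14 CPM in set 1 and 16.0 CPM in set 2. Hspb1 was not steady over Tph2 levels above the cut either, with 8.46 CPM at 500 to 1000 CPM of Tph2, 37.4 CPM at 2000 to 3000 and 11.5 CPM at 4000 or more. Of the 1152 cells with 3 or more Slc17a8 UMIs, 940 lay outside the 131 Tph2-low and 93 Met cells. Nearly all Tph2-low cells were therefore Slc17a8 cells as well, and their level was near that with Slc17a8 alone. The difference of Hspb1 by Tph2 is thus not separate from that by Slc17a8. Chosen after its values were seen, Hspb1 was most like Prph, the gene of the intermediate filament peripherin (r = 0.46 over 2350 cells), Prkcq (0.41) and Arhgap36 (0.40).

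Hspb8, a small heat shock protein of chaperone-assisted autophagy that is in no role list, had a pattern of the same direction at a smaller size. It stood at 10.4 CPM in Slc17a8 cells and 19.6 CPM in the others (log2 ratio -0.91, -1.05 to -0.78), and at 18.1 and 11.8 CPM by Gad2 (0.61, 0.48 to 0.75). Across the classes it ran from 20.3 CPM with Gad2 alone and 17.1 CPM with neither marker to 11.6, 10.6, 7.99 and 7.77 CPM with both markers, with Slc17a8 alone, in Tph2-low and in Met cells. Leaving out Tph2-low and Met cells, an alternative chosen after seeing the data, took Hspb8 under 1.5-fold in the Gad2 split.

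Hspa12a was the reverse of Hspb1. It encodes a distant, atypical HSP70 expressed in brain and spans chr19:58795750-58943654 on the minus strand. It stood at 61.5 CPM in Slc17a8 cells and 22.7 CPM in the others (log2 ratio 1.44, 1.35 to 1.52), and at 28.1 CPM in Gad2 cells and 56.4 CPM in the others (2.01 times lower, log2 interval -1.08 to -0.93). By class it was highest with Slc17a8 alone at 68.0 CPM (65.5 to 70.6), then 55.3 CPM in Met cells, 49.4 CPM with both markers and 44.2 CPM in Tph2-low cells. The lowest levels were 27.3 CPM with neither marker and 21.3 CPM with Gad2 alone. The intervals of the Met cells (48.6 to 62.7), of the cells with both markers (46.1 to 52.9) and of the Tph2-low cells (37.7 to 51.5) overlap from neighbour to neighbour. Cells with 5 or more UMIs made up 41.4% of Slc17a8-alone cells and 3.78% of Gad2-alone cells, whose median depths were 63265.5 and 62061 UMIs. Over all 12474 genes the one most like Hspa12a across cells was Slc17a8 itself (r = 0.46), followed by Ntm (0.42) and Slit2 (0.39), again named after the values were seen. Without Tph2-low and Met cells its r with Slc17a8 was 0.50.

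**Figure D3:**
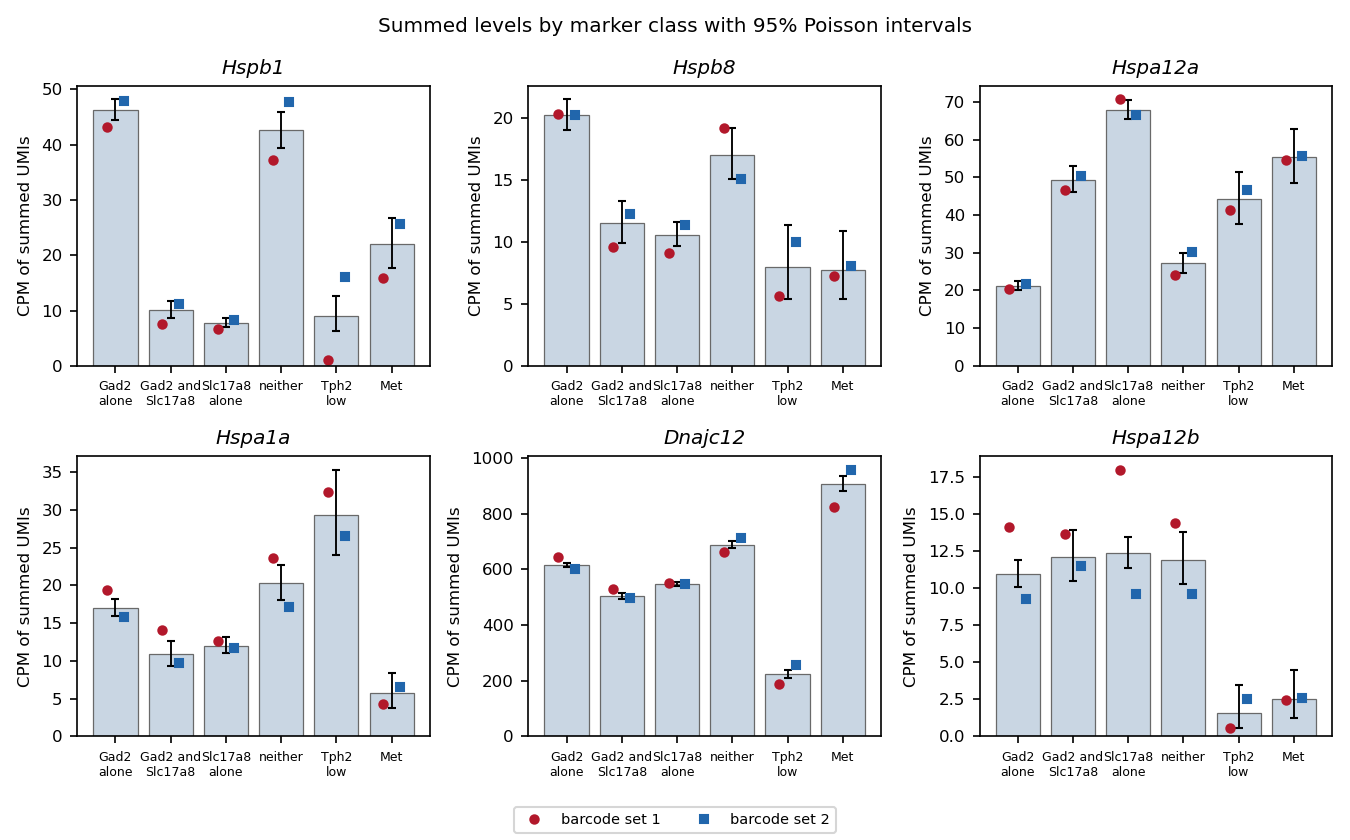
Summed CPM of Hspb1, Hspb8, Hspa12a, Hspa1a, Dnajc12 and Hspa12b in 6 classes of droplet cells, bars with exact 95% Poisson intervals, red circles barcode set 1 and blue squares barcode set 2. Hspb1 is high with Gad2 alone and with neither marker, Hspa12a with Slc17a8, Hspa1a is highest and Dnajc12 lowest in Tph2-low cells, and Hspa12b is at 1.60 CPM in Tph2-low and 2.51 CPM in Met cells.

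Hspa1a and Hspa1b differed less by Slc17a8 than Hspb1. Hspa1b stood at 3.70 CPM in Slc17a8 cells and 8.50 CPM in the others (log2 ratio -1.20, -1.42 to -0.98). Hspa1a stood at 12.2 and 17.8 CPM (-0.54, -0.67 to -0.41), which is under 1.5-fold, but was past it (-0.60) without Tph2-low and Met cells. In Tph2-low cells Hspa1a was at 29.3 CPM and in the rest at 14.7 CPM (1.00, 0.71 to 1.27), while Hspa1b, with 32 UMIs, had an interval that reached 0 (0.48, -0.07 to 0.99). Thinned to equal depth, 45.8% of Tph2-low cells had a UMI of Hspa1a, beside 16.7% to 29.1% in the other classes outside the Met cells. Met cells had the lowest level of both, 25 UMIs of Hspa1a at 5.71 CPM (log2 ratio -1.43, -2.06 to -0.86) and 10 UMIs of Hspa1b at 2.29 CPM (-1.46, -2.52 to -0.57), and 11.0% of thinned Met cells had a UMI of Hspa1a. Along Tph2 levels Hspa1a went from 29.3 CPM below 500 CPM of Tph2 through 25.8 CPM at 500 to 1000 and 16.0 CPM at 1000 to 2000 to 12.9 CPM at 4000 or more.

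The other 5 inducible members stayed within 1.5-fold in every marker split. Hsp90aa1 was at 2070.1 CPM in Tph2-low cells and 1499 CPM in the rest (log2 ratio 0.47, 0.43 to 0.50) and at 1175 and 1526 CPM by Met (-0.38). Hsph1 went the other way in Tph2-low cells, at 319 and 412 CPM (-0.37, -0.46 to -0.29). Dnajb1 differed by 0.11 and Dnajb4 by 0.00 on the log2 scale in Tph2-low cells, and by -0.36 and -0.43 in Met cells. Dnaja1 stayed between -0.09 and 0.16 in all 5 marker splits. In Met cells the inducible list's median log2 ratio was -0.37 beside 0.04 over all genes. Of its 8 members 2 passed the fold there (25% beside 25.4% of all genes), and Dnaja1 alone was not lower than in the rest. The rest joins classes of unlike level. Hspb1, lower in Met cells than in the rest, was higher there than with Slc17a8 alone, as given above. In Tph2-low cells the list's median was 0.10 beside 0.18 over all genes, and its members differed in direction. Hspa1a and Hsp90aa1 were higher there, and Hspb1 and Hsph1 lower. The summed list, in which Hsp90aa1 weighs most, was highest in these cells (3479 CPM).

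Other measures moved with these splits. Tph2-low cells had a lower share of mitochondrially encoded UMIs (median 4.04% beside 6.56%), fewer UMIs, and higher immediate early genes: 11 of 14 passed the fold upward and 1, Fosl2, downward, with Fos at 264 CPM beside 90.2 CPM. Their 8 serotonin neuron markers summed to 1631 CPM beside 9463 CPM in the rest. The 3 oligodendrocyte markers measured, of 4 in the list, summed to 69.0 CPM beside 29.9 CPM, none at 0, while astrocyte, microglia and vessel markers were each at 0.266 CPM, or 1 UMI, under the rest, so that all but 1 marker of each type was at 0. The blood marker was at 0.266 CPM beside 0.182 CPM and the ependyma marker at 2.13 CPM beside 1.27 CPM. In Met cells the 4 vessel markers summed to 10.7 CPM beside 2.81 CPM, most of it Rgs5, with a UMI in 2.15% of these cells, and serotonin markers to 5507 CPM beside 9371 CPM. Of the 14 immediate early genes 6 passed the fold downward there and 1, Ier3, upward (50% beside 25.4% of all genes). By Slc17a8 3 passed, all upward (21.4% beside 10.4%), and by Gad2 0. After thinning to equal depth 12 of the 13 members past the fold by Tph2 and 5 of the 7 by Met were still past it in the same direction, and with mitochondrial and ribosomal UMIs out of the total 11 of 13 and 7 of 7 were. The part of other cells' RNA or of immediate early genes in the members' differences was not tested.

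Members differed little by Fos level. The inducible list had a median log2 ratio of 0.01 by Fos beside -0.01 over all genes, and a median absolute log2 ratio of 0.06 beside 0.07. Hspa1a stood at 15.2 CPM in Fos cells and 14.9 CPM in the others (0.03, -0.11 to 0.16). Of 13 immediate early genes other than Fos itself at 1 CPM or more, 8 passed the fold upward (Btg2, Dusp1, Egr1, Fosb, Fosl2, Junb, Npas4 and Nr4a1), with a median of 0.81. Since Fos was the gene split on and the others are induced with it, these serve as the measure of how far the split reaches.

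Over 4 bins of Fos UMIs (0, 1 to 2, 3 to 9, and 10 or more, with 263, 560, 1094 and 433 cells) the contrast was the same. Fosb stood at 9.09 CPM in cells with 0 Fos UMIs and 46.7 CPM in cells with 10 or more, 5.14 times as high. Hspa1a stood at 13.6, 15.5, 14.7 and 16.4 CPM, with intervals of 11.7 to 15.7 CPM in the lowest and 14.9 to 18.1 CPM in the highest bin. Dnajb1 went up in steps from 71.9 to 90.5 CPM, 1.26 times, and Hsph1 from 364 to 427 CPM, 1.17 times. Hsp90aa1 went down in steps, from 1775 CPM through 1600.6 and 1482 CPM to 1364 CPM, 0.769 times its level without Fos UMIs. Hspb1 had no order, at 22.1, 33.4, 28.3 and 22.5 CPM. Without Tph2-low cells the highest bin stood at 16.0 CPM for Hspa1a, 90.0 CPM for Dnajb1 and 1332 CPM for Hsp90aa1. The median depth of the bins went from 50054 UMIs with 0 Fos UMIs to 61232 with 10 or more, since a deeper cell has more UMIs of every gene. Across single cells Hspa1a and Fos correlated at 0.04. No member in any list passed 1.5-fold by Fos. The furthest of all members at 1 CPM or more were Dnajb3 (5.92 and 4.56 CPM, log2 ratio 0.38) and Dnajc28 (7.80 and 9.97 CPM, -0.35).

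**Figure D4:**
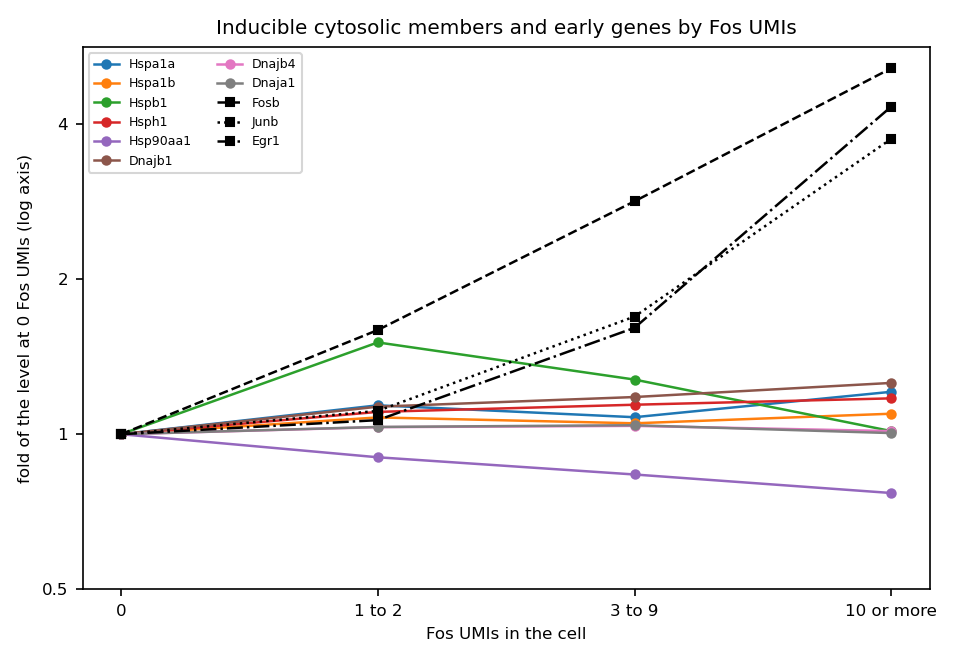
Level relative to cells with 0 Fos UMIs (log axis) over 4 bins of Fos UMIs, for the 8 inducible cytosolic members in colour and the immediate early genes Fosb, Junb and Egr1 as black squares. The 3 immediate early genes end 3.75 to 5.14 times higher, while the inducible members end between 0.769 and 1.26 times.

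The summed ER list ran from 934.8 CPM (906.3 to 963.9) in Met cells to 1265.6 CPM (1229.9 to 1302.1) in Tph2-low cells, with 1048.3 to 1136.1 CPM in the other 4 classes. Hspa5, whose promoter is shown above, stood at 275 CPM in Tph2-low cells and 193 CPM in the rest (log2 ratio 0.51, 0.42 to 0.60), and Dnajb11, its DnaJ partner, at 89.2 and 71.1 CPM (0.33, 0.17 to 0.49). Hsp90b1 differed by 0.13 and Dnajc3 by 0.15 there. The list's median in Tph2-low cells was 0.20 beside 0.18 over all genes, and 0 of 6 members passed the fold. Dnajc10, an ER disulfide reductase, was the one ER member past the fold in any split, at 60.6 CPM in Met cells and 95.5 CPM in the others (-0.66, -0.84 to -0.48), and it was under the fold (-0.52) where 1 UMI of Met was enough. The 3 members with the ER stress element correlated weakly with each other, Hspa5 with Hsp90b1 at 0.26, Hsp90b1 with Dnajc3 at 0.21 and Hspa5 with Dnajc3 at 0.12, and no ER pair was over 0.2 after thinning. Among 13 further unfolded protein response genes 3 were past the fold upward in Tph2-low cells (Creld2, Herpud1 and Pdia6) and 1 downward (Xbp1), a share of 30.8% beside 33.4% of all genes. In Met cells 1 passed, Atf4, upward (7.69% beside 25.4%), and 0 passed by Gad2, Slc17a8 or Fos.

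Of the mitochondrial members 1 passed the fold. Dnajc15, a DnaJ protein of the inner membrane import motor, stood at 161 CPM in Tph2-low cells and 103 CPM in the rest (0.64, 0.52 to 0.76), and at 121 and 88.6 CPM by Slc17a8 (0.45, 0.40 to 0.50). Scaled to a total without mitochondrial and ribosomal UMIs, the ratio in Tph2-low cells was 0.57 and under the fold. Its companions differed in sign in Tph2-low cells. Hspa9, the mitochondrial HSP70, and Dnaja3, its DnaJ partner, differed by 0.34 each, whereas Hspe1, the chaperonin lid, was lower at 842 CPM beside 1127 CPM (-0.42, -0.47 to -0.37). Hspd1, its neighbour on the opposite strand, differed by -0.08. The spans of Hspd1 (chr1:55077835-55088243) and Hspe1 (chr1:55088132-55091307) overlap at their starts on opposite strands, away from the 3′ ends that droplet reads count.

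Among the constitutive members Dnajc12 stood out, with Hspa12a above. Dnajc12 (chr10:63382443-63410576, plus strand) encodes a co-chaperone of the aromatic amino acid hydroxylases, tryptophan hydroxylase among them. It stood at 223 CPM in Tph2-low cells and 599 CPM in the rest (log2 ratio -1.42, -1.52 to -1.32), and at 908 CPM in Met cells and 578 CPM in the others (0.65, 0.61 to 0.70). These calls depend on the cut and the cells. With Tph2-low cells taken as under 1000 CPM of Tph2 the ratio was -0.53, and by Met it was 0.57 where 1 UMI was enough and 0.48 in barcode set 1 alone, all under the fold. The remaining classes ran from 506 CPM with both markers through 549 CPM with Slc17a8 alone and 615 CPM with Gad2 alone to 689 CPM with neither marker. It did not follow Tph2 beyond the cut. Dnajc12 stood at 689 CPM in cells of 500 to 1000 CPM of Tph2, the highest of the bins, and then at 686, 607, 561 and 525 CPM in the bins above it up to 4000 CPM or more. Its r with Tph2 was 0.43 over all 2350 cells (0.34 thinned) and -0.17 without Tph2-low and Met cells.

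The 5 genes outside the members most like Dnajc12 across cells were Slc18a2, the vesicular monoamine transporter (r = 0.52), Cthrc1 (0.51), Cryba2 (0.51), Ddc, the decarboxylase that completes serotonin synthesis (0.50), and Ngfrap1 (0.47). For all 5 r was higher in barcode set 1 than in set 2, for Slc18a2 0.58 and 0.45.

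Hspa8 and Hsp90ab1, the most abundant constitutive members, stayed within 1.5-fold in every marker split. Hspa8 differed by -0.07 in Tph2-low and -0.25 in Met cells, and Hsp90ab1 by -0.30 and -0.36. Hsp90ab1 was also lower in Slc17a8 cells, at 2319 CPM beside 2728 CPM (-0.23). Dnaja2 was at 303 CPM in Tph2-low cells beside 205 CPM (0.57, 0.48 to 0.65), just under the fold, and was past it with the Tph2 cut at 250 CPM, after thinning and in barcode set 2 alone. The synaptic members Dnajc5, the vesicle cysteine string protein, and Dnajc6, the clathrin uncoating factor auxilin, differed by -0.09 and -0.24 there. Hspa2 passed the fold in Tph2-low cells on 13 UMIs, with an interval that includes 0 (0.77, -0.16 to 1.57), and was under the fold in barcode set 2 alone (0.43) and with the Tph2 cut at 1000 CPM (0.56).

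Members in no list supplied 8 of the 13 that passed by Tph2. Hspa12b, an HSP70 relative best known from endothelium (chr2:131127280-131146321, plus strand), had 6 UMIs in Tph2-low cells at 1.60 CPM beside 11.4 CPM in the rest (log2 ratio -2.83, -4.28 to -1.71). In Met cells it had 11 UMIs at 2.51 CPM beside 11.4 CPM (-2.18, -3.19 to -1.34). The other 4 classes lay between 11.0 and 12.4 CPM with overlapping intervals. The summed vessel markers went the same way as Hspa12b in Tph2-low cells (0.266 CPM beside 3.14 CPM) and the opposite way in Met cells (10.7 CPM beside 2.81 CPM, mostly Rgs5 in few cells), and their part in its level was not tested. Hspa12b was also the member past the fold between barcode sets, at 14.4 CPM in set 1 and 9.35 CPM in set 2 (0.62, 0.47 to 0.77), which thinning took under the fold (0.52).

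Higher in Tph2-low cells were Dnajc17, a DnaJ protein linked to splicing (23.4 CPM beside 8.42 CPM, 1.48, 1.15 to 1.79), Dnajc4 (35.1 and 17.2 CPM, 1.03), Dnajc9, a histone co-chaperone (66.6 and 34.7 CPM, 0.94), Dnajc1 (21.8 and 11.8 CPM, 0.89) and Hspb6 on 28 UMIs (7.45 and 4.82 CPM, 0.63, 0.03 to 1.18). Hspb6 was under the fold with either other Tph2 cut (0.50 and 0.22), after thinning (0.30), in barcode set 2 alone (0.40) and without mitochondrial and ribosomal UMIs in the total (0.55). Dnaja4 was lower, at 21.0 and 34.8 CPM (-0.73, -1.07 to -0.41). Dnajc17 went down in steps over the Tph2 bins, from 23.4 through 15.4, 10.3, 8.82 and 7.18 to 6.42 CPM. It was also past the fold in Met cells, at 13.5 CPM beside 8.68 CPM (0.64, 0.23 to 1.01), but not where 1 UMI of Met was enough (0.42), after thinning (0.54), in barcode set 2 alone (0.56) or with the mean of CPM per cell (0.54).

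Partners of these chaperones outside the families were counted from further lists. Of 28 HSP70 and HSP90 partners 5 were past the fold in Tph2-low cells (17.9% beside 33.4% of all genes), Bag5, Ppid and Tomm34 upward and Bag3 and Hscb downward, and 4 in Met cells (14.3% beside 25.4%), Bag3 and Bag4 upward and Bag2 and Fkbp5 downward. Bag3, a stress-induced exchange factor that works with HSPB8, thus had opposite signs in these classes, at 2.66 CPM beside 9.00 CPM in Tph2-low cells and 14.6 CPM beside 8.63 CPM in Met cells. None of the 28 passed by Gad2, Slc17a8 or Fos, and none of 7 cytosolic chaperonin subunits in any split. Of 4 heat shock factors only Hsf4 passed, upward in the Tph2-low, Slc17a8 and Met cells and in barcode set 1, at 13.4 CPM beside 6.49 CPM between the sets.

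The hand-picked cells give levels by anatomical subregion and driver. They held 756872 to 7664103 reads each, and 26 of the 65 members had reads in all 70 cells. These reads cover whole transcripts, so levels are compared between groups and not between genes. A group was set against the median of all other hand-picked cells, and a member counted as past the fold at 2-fold on medians of CPM + 10, where the median on either side was 10 CPM or more. Members past the fold were 2 of 53 in Crh-cre rDR cells (3.77% beside 9.34% of all genes), 0 of 50 in Npy2r-cre cDR (0% beside 8.71%) and 1 of 51 in Npy2r-cre rDR (1.96% beside 11.4%). In P2ry1-cre cDR cells 4 of 50 passed (8% beside 25.3%). In Slc6a4-cre cells 5 of 53 passed in the cDR (9.43% beside 16.1%), 5 of 56 in the dlDR (8.93% beside 9.71%), 0 of 51 in the dmDR (0% beside 7.83%) and 2 of 52 in the vmDR (3.85% beside 9.31%). The members' shares were below those of all genes here too. Calls on medians of few cells depend on the summary used. With the mean of log2(CPM + 10) in place of the median, members past the fold were Hspb1 and Dnajc27 in the dlDR, Hspa13 in the Slc6a4-cre cDR, Hsp90aa1, Dnajc9, Dnaja4 and, newly, Dnajb14 in P2ry1-cre cells, and Hspa9, newly, in the vmDR. In the groups with 0 members past the fold, the furthest member in no list was Dnajb12 in Npy2r-cre cDR (log2 ratio 1.00) and Dnajc14 in the dmDR (0.77).

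Hspb1 was highest in the dlDR. Its levels in the 10 Slc6a4-cre dlDR cells were 0, 41.7 and 140 CPM at the lowest, median and highest, while the median of all other cells was 0. It reached 10 CPM in 7 of 10 cells there, in 4 of 9 in the dmDR, 3 of 8 Crh-cre rDR cells, 2 of 8 in the vmDR, 2 of 10 P2ry1-cre cells, 1 of 10 Npy2r-cre cDR cells, 1 of 6 Slc6a4-cre cDR cells and 0 of 9 Npy2r-cre rDR cells. All groups overlap, since each had cells at 0. Within the dlDR the median was 35.4 CPM over 5 cells of day 63 and 49.0 CPM over 5 cells of day 90.

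Hspa12a had its lowest median in the same dlDR cells and its highest in the Slc6a4-cre cDR cells. The dlDR cells had 0, 0 and 20.5 CPM at the lowest, median and highest, and reads in 4 of 10. The Slc6a4-cre cDR cells had 0, 48.9 and 82.4 CPM, with a median of 13.5 CPM in all other cells. Other medians were 26.4 CPM in Npy2r-cre rDR, 25.3 CPM in Npy2r-cre cDR, 22.6 CPM in the vmDR, 14.9 CPM in P2ry1-cre, 8.59 CPM in Crh-cre rDR and 4.27 CPM in the dmDR. Neighbours in this order overlap throughout, and with the mean of log2(CPM + 10) the log2 ratio was -0.93 in the dlDR and 0.86 in the Slc6a4-cre cDR, both under 2-fold. The dlDR and dmDR, where Hspb1 had its highest numbers of cells with 10 CPM, thus had the lowest medians of Hspa12a.

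**Figure D5:**
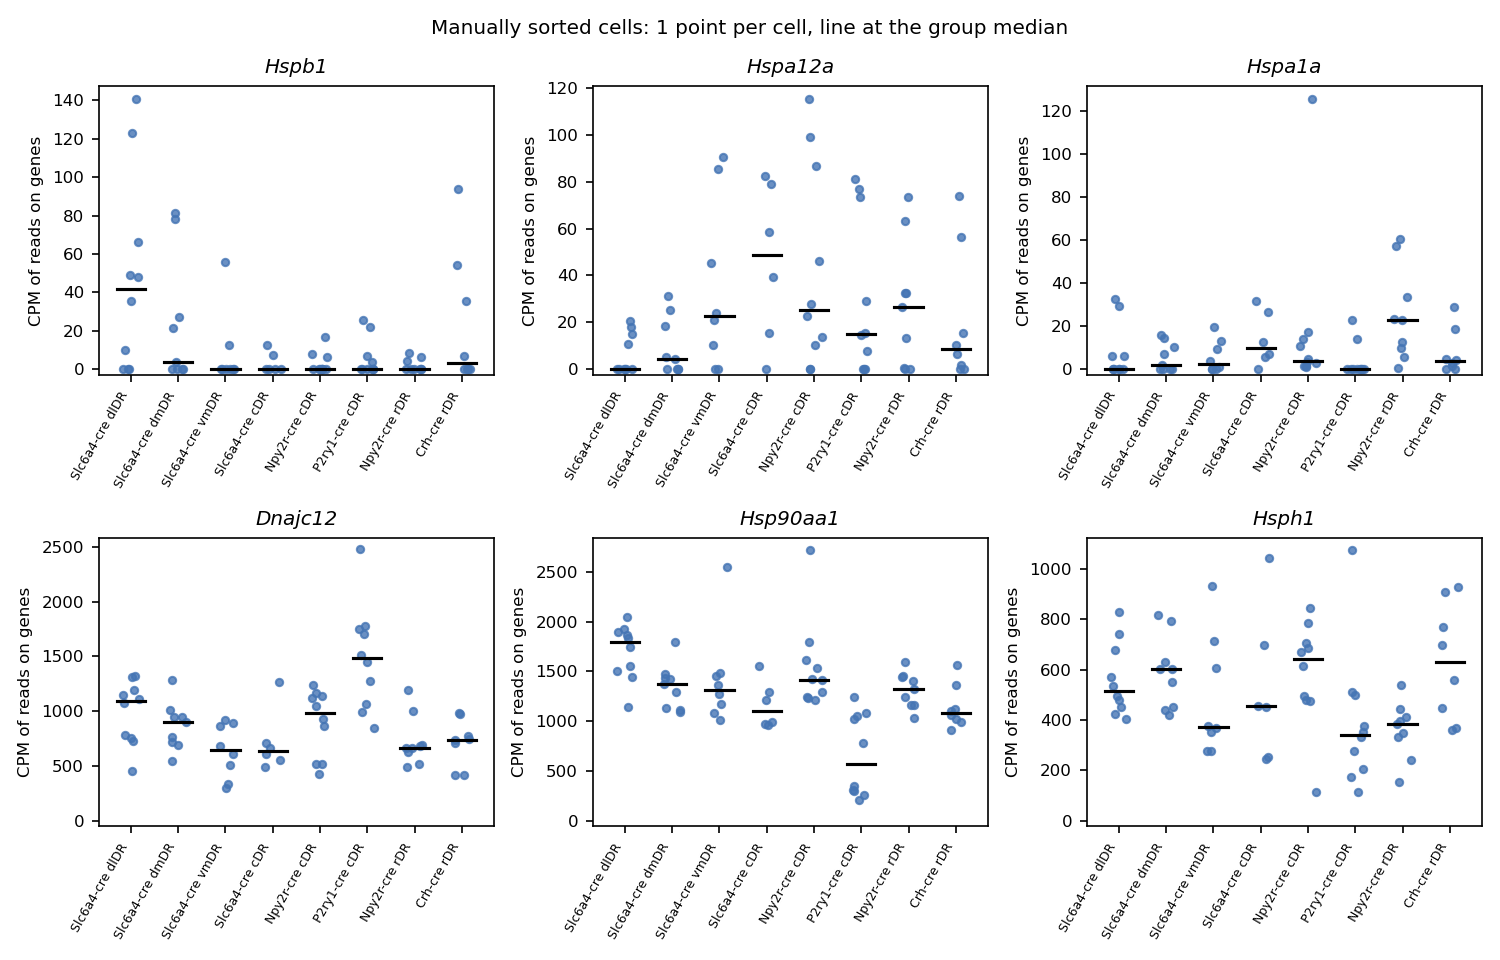
CPM of Hspb1, Hspa12a, Hspa1a, Dnajc12, Hsp90aa1 and Hsph1 in 70 hand-picked cells of 8 groups, 1 point a cell with the group median as a line. Hspb1 is highest in Slc6a4-cre dlDR cells (median 41.7 CPM), Dnajc12 in P2ry1-cre cDR cells (median 1484 CPM), and Hsp90aa1 lowest in the latter (median 567 CPM).

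Hspa1a passed the fold in Npy2r-cre rDR cells, with 0.802, 23.0 and 60.8 CPM at the lowest, median and highest beside a median of 2.82 CPM in all other cells. With the mean of log2(CPM + 10) the log2 ratio was 0.93, under the fold, and the highest 2 values, 60.8 and 57.1 CPM, rest on 46 and 85 reads. All 9 of these cells and all 10 Npy2r-cre cDR cells had Hspa1a reads, beside 2 of 10 P2ry1-cre cells. The median was 23.4 CPM over 3 cells of day 77 and 16.4 CPM over 6 cells of day 87. The Npy2r-cre cDR cells, of the same ages, had a median of 4.08 CPM, so the higher level was not shared by both regions of this driver. Hspa1a reached 10 CPM in 6 of 9 and 4 of 10 of these groups, in 3 of 6 Slc6a4-cre cDR and 3 of 9 dmDR cells and in 2 cells of each other group. Full-length reads cannot be assigned surely between Hspa1a and Hspa1b: 52.7% of the 75-base windows of Hspa1a and 55.8% of those of Hspa1b occur in the other gene, but 0% of those in the last 500 bases, which droplet reads come from.

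P2ry1-cre cDR cells stood apart in several members. Dnajc12 had 846, 1484 and 2476 CPM at the lowest, median and highest, beside a median of 748 CPM in all other cells. That difference, 1.97-fold on CPM + 10, fell just short of the fold used. The medians of the other groups ran from 639 to 1095 CPM. Against the 6 Slc6a4-cre cells of the same region (496, 639 and 1265 CPM) the ranges overlap. Hsp90aa1 was lower, with 205, 567 and 1241 CPM beside 1359 CPM in all other cells. All 10 values were below that median, and they left a gap. The cells numbered 1 to 5 in the labels lay between 205 and 349 CPM and those numbered 6 to 10 between 786 and 1241 CPM. The low block held the cells of days 62 and 74, the high block those of days 63 and 66, and both held 2 cells of day 64. Hspa8 ran from 373 to 1399 CPM in the low and from 979 to 2342 CPM in the high block, while Hsp90ab1 ran from 1674 to 2513 CPM and from 2042 to 2501 CPM. Fos had reads in cells of both blocks, at 80.8 and 166 CPM in the low and 84.0 CPM in the high block. It was at 0 in all other P2ry1-cre cells, and its relation to Hsp90aa1 was not tested. What the numbers stand for beyond naming cells is not given in the sources used here, and their part in the level was not tested. Their reads ran from 3999547 to 6416860. Dnajc9 was higher (45.5, 112 and 221 CPM beside 44.4 CPM), Dnaja4 lower with reads in 2 of 10 cells (median 0 beside 35.2 CPM), and Hspa13, an atypical microsomal HSP70, lower (15.5 beside 68.9 CPM), the last at a log2 ratio of -0.98 and under the fold with the mean of log2(CPM + 10).

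Of 53 members at 10 CPM or more in either cDR group, 1 had ranges that did not overlap between P2ry1-cre and Slc6a4-cre cells, beside 1.34% of all genes. That was Hsp90ab1, at 1674 to 2513 CPM in P2ry1-cre and 3191 to 3781 CPM in Slc6a4-cre cells. Met reads were found in 9 of 10 P2ry1-cre cells, whereas the position of Met droplet cells in the DR was not measured. The direction of the 6 members past the fold by Met that could be measured in both kinds of cell was compared. For 5 of 6 (83.3%) it was the same as between P2ry1-cre and Slc6a4-cre cDR cells, Dnajc10 being the exception, beside 80.6% of the 1163 such genes overall. Hspa1a and Hspa12b had medians of 0 CPM in P2ry1-cre cells. They reached 10 CPM only in Slc6a4-cre cells (10.05 and 26.8 CPM), so they count through the group in which they were higher.

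The remaining members past 2-fold on medians are given by their group, and all of these but Hspa13 and Dnajc27 were under it with the mean of log2(CPM + 10), at log2 ratios of 0.36 to 0.83 in size. In Slc6a4-cre cDR cells Hspa12b (26.8 beside 4.53 CPM) and Dnajc1 (median 18.6 CPM) were higher, and Hspa13 (21.9 beside 69.5 CPM) and Dnajc10 (54.0 beside 119 CPM) were lower. In dlDR cells Dnajb3 (18.7 CPM) and Hspb6 (10.9 CPM) were higher beside medians of 0, and Dnajc27, a small GTPase with a DnaJ domain, was lower at 21.3 beside 66.8 CPM. In vmDR cells Hspa12b was higher at 20.9 CPM and Dnajb9 lower at 11.7 beside 37.4 CPM. In Crh-cre rDR cells Hspbap1 (16.8 CPM) and Dnajc28 (14.3 CPM) were higher beside medians of 0.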

How the data were processed

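The droplet table was deposited as UMI counts per gene and cell, which the authors made with Cell Ranger 3.0.2 on mm10 and filtered in R 3.5.3 for genes in few libraries and for cells with few genes, glial genes, low Fev or outlying mitochondrial, ribosomal or total counts. The manual table was deposited as read counts per gene, made by the authors with STAR 2.5.4 on mm10. Raw data and cells that did not pass were not analysed here, so the shares describe cells that passed.

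From the counts, UMIs were summed over cells and scaled to CPM, with exact 95% Poisson, conditional binomial (ratios) and Clopper-Pearson (shares) intervals. PCR reads of the manual cells are not independent molecules, and no interval is given there. A ratio or fold compares these samples only. Cells were thinned to 20000 UMIs for shares and Fano factors (seed 1). Scrublet, in scanpy 1.11.5, marked 10 cells, which were kept, 6 of them with Gad2 and Slc17a8. Python 3.11.15, numpy 2.4.6, scipy 1.17.1, pandas 2.3.3 and matplotlib 3.10.9 were used. The ratio step was tested on simulated data.

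Members and role lists were chosen with earlier results of these data known. The genes set to be followed by name were all role-list members and the 5 genes most like the inducible sum and Dnajc12. Added to them, in each comparison, were the 3 other members with the largest ratio. These needed 1 CPM (droplet) or a median of 10 CPM (manual) on at least 1 side. Not all of these named genes are described in the text. Alternatives changed the marker cuts, depth, barcode set, scaling, minimum level, fold, doublets, pseudocount and age. Promoters came from RefSeq.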

Additional observations from a re-analysis of the deposited data

Results flagged for a closer look

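In each group of hand-picked cells the highest and the lowest cell were compared with the nearest other cell for 10 members. In 17 of 80 such sets the gap took up more of the range than Dixon's 95% critical value allows, where chance alone flags about 1 in 20. The groups hold 6 to 10 cells, many at 0, and Dixon's values are for normally distributed errors, which such levels do not have.

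The 3 gaps that took up most of their group's range were those of Hspa1b and Hspa1a in Npy2r-cre cDR cells and of Hspa1b in P2ry1-cre cDR cells. In Npy2r-cre cDR cells the highest Hspa1a value was 125.4 CPM, the next being 17.5 CPM, and the highest Hspa1b value was 190.5 CPM, the next being 10.5 CPM. Both came from the same cell, of postnatal day 87. In Npy2r-cre rDR cells 1 cell had 205.7 CPM of Hspa1b, and the next had 68.7 CPM. The highest Hspa1b cell of the Slc6a4-cre vmDR had 34.11 CPM (next 12.0 CPM) and that of P2ry1-cre cDR had 1.609 CPM (next 0.175 CPM).

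For the small heat shock proteins the highest Hspb1 cells were at 16.77 CPM in Npy2r-cre cDR and 56 CPM in the vmDR, and the highest Hspb8 cell at 149.9 CPM in Npy2r-cre rDR. Hspa12b was highest in single cells at 105.8 CPM in Npy2r-cre cDR, 75.16 CPM in the dlDR and 154.7 CPM in the dmDR. Among abundant members, Hsp90aa1 reached 2719.4 CPM in a Npy2r-cre cDR cell and 2549.3 CPM in a vmDR cell, Dnajc12 reached 1265.4 CPM in a Slc6a4-cre cDR cell, and Hsph1 reached 1076.8 CPM in a P2ry1-cre cell and was lowest, at 115.2 CPM, in a Npy2r-cre cDR cell. Dnajb1 was at 0 in 1 dmDR cell, where the next lowest had 122 CPM.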

How the results depend on the processing

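No member past the fold changed direction under any alternative run. The fold chosen moved the numbers of members called: at the lower limit tried 34 passed by Tph2, 7 by Gad2, 9 by Slc17a8, 27 by Met, 2 by Fos and 9 between barcode sets, and at 2-fold 5 passed by Tph2, 3 by Met and 0 between barcode sets. After thinning 1 member passed by Fos (Hspa2) and 0 between barcode sets, and in barcode set 1 alone 1 passed by Fos (Dnajc28). Of the hand-picked cells' 19 calls, the median of CPM + 1 gave 40, the mean of log2(CPM + 10) 8, a 1.5-fold limit 76 and a 3-fold limit 3. The calls of Hspb1, Hspb8 and Hspa12a by Gad2, and of these with Hspa1b by Slc17a8, were kept under every other marker cut, after thinning and in each barcode set, though Hspb8 was under 1.5-fold by Gad2 without Tph2-low and Met cells. Under the alternatives 1467 of the named members' log2 ratios stayed within the interval of the reported value and 319 did not, and 1432 correlations moved by at most 0.1 and 40 by more. No paired analysis was possible because no label says that cells of the same number in different groups share an animal or day, and each group counts as 1 sample. Hspb8 by Met was under the fold after thinning (-0.51), and the other calls that ended, but for those under another fold or minimum level, are named in the report. Depth limits Hspa12b and Hspa1b in Tph2-low and Met cells, where 6 to 32 UMIs carry each value, and Hspb1 in Tph2-low cells (34 UMIs).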
